A study of Mus musculus with 2 samples.

Results

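Pdcd1+ Havcr2+ CD8 T cells outside the cell cycle were examined in leukocytes sorted from MC38 tumours, a transplanted mouse colon carcinoma line. The cells were chosen by measured values, a gate on raw counts of unique molecular identifiers (UMIs), each standing for 1 captured transcript. A cell was kept with at least 500 UMIs and at most 10% of them from mitochondrial genes. It entered the CD8 gate with at least 1 UMI of Cd3d, Cd3e or Cd3g and of Cd8a or Cd8b1, and none of Cd4, Foxp3 or Csf1r. Of those cells, the ones with at least 1 UMI each of Pdcd1 and Havcr2, none of Tcf7, a sum of at most 2 UMIs over the cell cycle genes Mki67, Top2a, Birc5 and Pclaf, and a sum of at most 2 UMIs over Gzmd, Gzme, Gzmf and Gzmg were retained. This left 805 of 69306 barcodes, 341 of them in the control library (Ctrl) and 464 in the library of the treated group (BiDT). Live CD45+ cells were taken on day 19 after inoculation, and cells of 5 biological replicates were mixed before each library was made. The series title speaks of an anti-TIM3 antibody fused to an interferon, and the question is thus what differed in cells with TIM3 transcripts. The labels do not spell out BiDT, and the dose, schedule, control treatment, mouse strain and age are not given in the sources used here. With 1 library per group no difference has a replicate check or a test, and every interval covers counting error only.

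PD-1, encoded by Pdcd1, and TIM3, encoded by Havcr2, are inhibitory receptors that accumulate on CD8 T cells under lasting antigen stimulation. Cells with both are usually described as terminally differentiated exhausted cells, which keep part of their killing capacity but have lost the Tcf7-dependent ability to renew. Type I interferons bind a receptor made of IFNAR1 and IFNAR2, and the kinases JAK1 and TYK2 then activate transcription factors such as STAT2. With IRF9 it forms part of a complex that binds the interferon-stimulated response element in the promoters of antiviral genes.

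Among genes with at least 50 CPM in 1 library, those with the highest BiDT over Ctrl ratio in Pdcd1+ Havcr2+ cells belonged to that antiviral group, and the promoters of the leading ones are shown because they carry the element itself. CPM are the UMIs of a gene per 1000000 UMIs summed over the gate. Usp18, the highest by this rule, had no entry in the RefSeq promoter table, and the next in order were Ifit3b (chr19:34607707-34607956), Ifit1 (chr19:34640639-34640888) and Ifit3 (chr19:34583279-34583528), all on the plus strand of GRCm38.p6. Each run holds the 250 bases before the gene start, and capitals mark the core of the element, GAAA and GAAA with any 2 bases between them, which stands here on the opposite strand and is printed as its reverse complement.
Ifit3b: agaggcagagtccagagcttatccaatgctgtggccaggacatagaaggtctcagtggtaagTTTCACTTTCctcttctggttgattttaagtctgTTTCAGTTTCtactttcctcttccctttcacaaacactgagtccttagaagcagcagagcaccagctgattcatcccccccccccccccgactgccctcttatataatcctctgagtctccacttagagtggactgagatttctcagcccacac
Ifit1: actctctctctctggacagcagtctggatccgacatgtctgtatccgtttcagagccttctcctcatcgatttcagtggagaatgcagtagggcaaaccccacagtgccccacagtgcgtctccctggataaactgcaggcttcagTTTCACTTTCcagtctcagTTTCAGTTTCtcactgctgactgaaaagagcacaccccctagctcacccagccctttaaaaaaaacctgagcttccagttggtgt
Ifit3: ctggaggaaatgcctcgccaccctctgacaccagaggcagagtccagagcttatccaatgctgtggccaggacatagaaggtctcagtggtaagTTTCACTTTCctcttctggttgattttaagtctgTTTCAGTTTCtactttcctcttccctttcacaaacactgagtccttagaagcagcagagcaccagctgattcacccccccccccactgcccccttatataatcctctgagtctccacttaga
Cores began 188 and 154 bases before the start of Ifit3b, 104 and 85 bases before that of Ifit1, and 156 and 122 bases before that of Ifit3. Ifit3 and Ifit3b shared an identical run of 169 of these bases, and reads of these near-identical copies may have been split between them. Over windows from 250 bases before to 50 after the start, searched on both strands, the core was present in 5 of the 8 promoters available among the 10 highest named genes (62.5%) and in 0 of 7 among the 10 lowest. It occurred in 23 of 41 promoters of the type I interferon list (56.1%), in 4 of 17 of the cytotoxic list (23.5%), 1 of 11 of the cytokines (9.09%), 1 of 14 of the transcription factors (7.14%) and 0 of 14 of the inhibitory receptors. The share was 4.61% of all measured genes with a promoter and 3.44% of all promoters in the table. A match is a description of letters and not evidence of binding.

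The libraries differed in quality measures as well as in treatment. Pdcd1+ Havcr2+ cells had a median of 3410 UMIs and 1507 genes in Ctrl and 3183 UMIs and 1503 genes in BiDT. Their median mitochondrial share was 1.83% and 0.943%, and the nuclear RNA Malat1 took 0.376% and 0.617% of their UMIs. All filtered cells had median depths of 4267.5 and 2670.0 UMIs. A total of 713 barcode strings occurred in both libraries, among them those of 9 Ctrl and 10 BiDT cells of the gate, but 0 strings passed it in both.

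Genes of the gate chose the cells, so that their levels are descriptions. Cd8a, a chain of the CD8 co-receptor, had 1168 CPM in Ctrl and 1176 CPM in BiDT, Pdcd1 had 755 and 699 CPM, and Havcr2 had 533 and 616 CPM. Lag3, another inhibitory receptor and no gene of the gate, stood at 853 and 1207 CPM, against 5.41 and 16.9 CPM in cells of a macrophage or monocyte gate. CD8 cells that passed the other cutoffs without a UMI of Pdcd1 or Havcr2 held it too, at 513 and 571 CPM. Many cells sat at the threshold. Exactly 1 UMI of Pdcd1 was seen in 105 Ctrl cells (30.8%) and 181 BiDT cells (39.0%), and exactly 1 UMI of Havcr2 in 163 (47.8%) and 230 (49.6%). For the cell cycle sum, 27 Ctrl and 33 BiDT cells lay at 2 inside the gate and 18 and 25 cells at 3 just outside it. For the granzyme D to G sum, 20 and 34 cells lay at 2, and 11 and 20 cells at 3.

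Pdcd1+ Havcr2+ cells made up 1.05% of filtered cells in Ctrl (exact Clopper-Pearson 95% interval 0.938 to 1.16%) and 1.35% in BiDT (1.23 to 1.48%). As a share of the CD8 gate they stood at 16.8% (15.2 to 18.5%) and 12.3% (11.3 to 13.4%). That order did not hold under thinning, which lowers the counts of every gate gene and so also changes which cells pass the cutoffs. The part of depth itself was not tested. After every cell was thinned to 1000 UMIs before gating, a step that left out no filtered cell, the shares of the CD8 gate were 5.73% and 6.15%, from 88 and 153 cells. Within CD8 cells free of Tcf7, cell cycle and granzyme D to G transcripts by the same cutoffs, cells with both receptors took 29.3% in Ctrl and 29.0% in BiDT. The neighbouring categories differed more there. Cells with Pdcd1 only took 36.6% (33.9 to 39.5%) and 25.8% (23.7 to 28.1%), those with Havcr2 only 12.0% (10.1 to 14%) and 18.1% (16.2 to 20.1%), and those with neither 22.1% and 27.0%. Median depth in cells with neither was 2282.0 and 1887.5 UMIs, below that of cells with both.

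Genes of the type I interferon list were higher in BiDT almost without exception in Pdcd1+ Havcr2+ cells. Of 54 list genes with at least 50 UMIs over both libraries, 53 passed 1.5 times higher in BiDT and 0 passed 1.5 times lower, and the median log2 ratio of BiDT over Ctrl was 2.73. Over all 6682 genes measured in these cells, 836 (12.5%) were at least 1.5 times higher and 362 (5.42%) at least 1.5 times lower, and the median was 0.06. The summed level of the list was 3766 CPM in Ctrl and 20070 CPM in BiDT. Its one remaining gene, named here after its value was seen, was Ly6e, a membrane protein gene, at 680 and 952 CPM. Usp18 encodes a protease that removes ISG15 from proteins and also restrains the type I interferon receptor. It gave 3 UMIs in Ctrl and 455 in BiDT, 2.30 and 273 CPM, a log2 ratio of 6.89 (95% counting interval 5.34 to 9.18). The ratio of this gene rests on the 3 Ctrl UMIs, held by 3 cells.

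Genes of the IFIT family, whose proteins bind foreign RNA, followed. Ifit3b was at 1.53 and 59.4 CPM, Ifit1 at 5.36 and 172 CPM (log2 ratio 5.0, 3.94 to 6.33), Ifit3 at 6.89 and 219 CPM, and Ifit2 at 9.95 and 185 CPM. In each of them the Ctrl level was near 0 and the BiDT level was in the range of other expressed genes. Oas3, an enzyme that makes the second messenger for RNase L on sensing double-stranded RNA, was at 12.2 and 231 CPM, and its relative Oasl1 at 3.06 and 84.0 CPM. Rsad2, which encodes the antiviral protein viperin, was at 13.8 and 305 CPM (4.47, 3.79 to 5.23), and its genomic neighbour Cmpk2, a mitochondrial nucleotide kinase, at 4.59 and 101 CPM. Rtp4 was at 7.65 and 136 CPM. The most abundant list genes were already present in Ctrl. Ifi27l2a, a small interferon-induced protein gene, was at 291 and 4113 CPM (3.82, 3.67 to 3.97), and Ly6a, which encodes the surface protein Sca-1, at 496 and 1595 CPM (1.68, 1.56 to 1.81). Ly6c2, a surface protein gene of the Ly6 family expressed by effector and memory CD8 T cells and by monocytes, was at 447 and 3253 CPM (2.86, 2.74 to 2.99). In the macrophage or monocyte gate Ly6c2 was at 296 and 1765 CPM, below its level in the T cells.

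Targets shared with interferon gamma and the class I antigen presentation genes were also higher, by less. Of 20 interferon gamma-type genes measured, 15 (75%) passed 1.5 times higher and 1 (5%) passed 1.5 times lower (median 0.89), beside 12.5% and 5.42% of all genes. The immunity-related GTPase genes Irgm1, at 32.9 and 146 CPM (2.15, 1.68 to 2.66), and Irgm2, at 9.19 and 51.6 CPM, led that list together with the GTPase genes Tgtp2, at 13.0 and 55.2 CPM, and Gbp6, at 28.3 and 112 CPM. Irf8, a transcription factor and the most abundant gene of the list, was at 501 and 394 CPM (-0.35). Of 22 genes of class I presentation, 13 (59.1%) passed 1.5 times higher and 0 passed 1.5 times lower (median 0.61). H2-T22, a nonclassical class I gene, was at 224 and 642 CPM (1.52, 1.33 to 1.71), the classical class I gene H2-K1 at 3446 and 6015 CPM (0.80), and B2m, the light chain of all class I molecules, at 4332 and 5436 CPM (0.33). Tapbp, the chaperone tapasin, was at 197 and 400 CPM (1.02).

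The receptor and kinase genes upstream of these targets did not follow them. Of 14 genes of interferon receptors and signalling measured, 0 passed 1.5 times higher and 0 passed 1.5 times lower (median -0.14). Ifnar1 was at 91.1 and 70.8 CPM (-0.36, -0.74 to 0.02) and Ifnar2 at 32.9 and 41.4 CPM (0.33, -0.24 to 0.92), so that both intervals include 0. The kinase gene Jak1 was at 491 and 361 CPM (-0.45, -0.61 to -0.28) and Jak2 at 90.3 and 61.8 CPM (-0.55). Tyk2 was at 48.2 and 50.4 CPM. Stat2 was counted in the type I interferon list instead. In cells gated after thinning Jak1 had -0.61 and Ifnar1 -0.66, past the lower limit, though Ifnar1 had 0.10 with cell cycle and granzyme sums of 0. Jak2 had -0.68 with at least 2 UMIs of Pdcd1 and of Havcr2.

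The interferon shift was spread over most Pdcd1+ Havcr2+ cells rather than carried by a few. In cells thinned to 1000 UMIs, the list contributed a median of 3 UMIs per cell in Ctrl, with 5th and 95th percentiles of 0 and 9, and 19 UMIs in BiDT, with percentiles of 4 and 38. Of the 464 BiDT cells, 382 (82.3%) lay above the 95th percentile of the Ctrl cells, as did 13 of the 341 Ctrl cells (3.81%). No list UMI was found in 33 Ctrl cells and in 0 BiDT cells, which allows a share of up to 0.647% in BiDT. Single cells overlapped, since the highest Ctrl cell had 34 and the lowest BiDT cell 2. After thinning, Usp18 was detected in 0.587% of Ctrl and 20.7% of BiDT cells, and in 0.516% and 9.53% of cells of a tumour or stroma gate, which had median depths of 9276 and 5287.5 UMIs before thinning. Without thinning the shares in Pdcd1+ Havcr2+ cells were 0.880% and 50.2%.

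**Figure D1:**
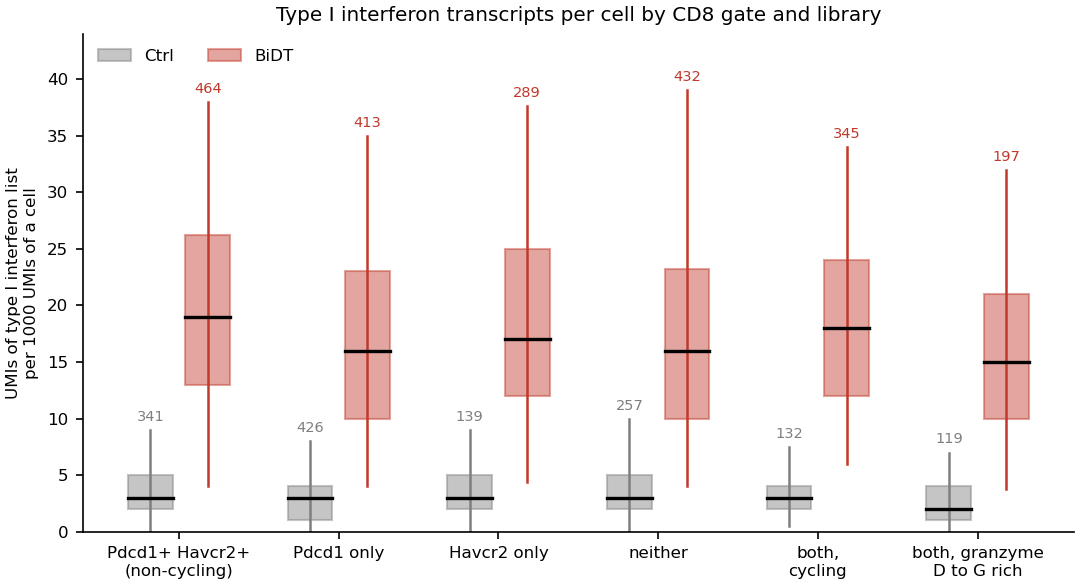
UMIs of the type I interferon list per cell after thinning to 1000 UMIs, for 6 CD8 gates in Ctrl (grey) and BiDT (red). Boxes span the quartiles, black lines are medians, whiskers run from the 5th to the 95th percentile, and numbers are cells. The BiDT medians lie between 15 and 19 UMIs and the Ctrl medians between 2 and 3 in all 6 gates.

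Neighbouring CD8 cells showed a shift of similar size whether or not they had a Havcr2 UMI. A cell with 0 Havcr2 UMIs is not shown to lack the transcript or TIM3. Exactly 1 Havcr2 UMI was seen in 47.8% of Ctrl and 49.6% of BiDT cells with both. Cells with neither were shallower, at medians of 2282.0 and 1887.5 UMIs. Over the 54 list genes, the median log2 ratio was 2.73 in Pdcd1+ Havcr2+ cells, 2.77 in cells with Pdcd1 only, 2.48 in those with Havcr2 only and 2.64 in those with neither. It was 2.90 in cycling cells with both receptors and 2.94 in cells with both that were rich in granzymes D to G. In cells with neither receptor, 37 of the 54 ratios were below those of Pdcd1+ Havcr2+ cells, by a median of 0.27, and this difference was not tested. Per thinned cell, the BiDT medians were 16 UMIs in cells with neither and in cells with Pdcd1 only, and 17 in cells with Havcr2 only. Usp18 itself had ratios of 4.78 in cells with Pdcd1 only, 5.91 with Havcr2 only and 4.22 with neither, against 6.89, and these gates had few Ctrl UMIs too.

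Within Pdcd1+ Havcr2+ cells the list level was also read by the number of UMIs of the gate genes, as a description, since those counts chose the cells and differ with depth. BiDT cells with 1 Havcr2 UMI had a summed list level of 20606 CPM, those with 2 had 20448 CPM and those with 3 or more 19224 CPM. The corresponding Ctrl levels were 3830, 3367 and 4035 CPM. By Pdcd1 UMIs in the same 3 classes, the BiDT levels were 19109, 19545 and 21034 CPM and the Ctrl levels 4151, 3467 and 3686 CPM. Cells with 3 or more Havcr2 UMIs were deeper, with a median of 4084.0 UMIs against 2870.5 UMIs in BiDT cells with 1. Ly6c2 was itself higher in BiDT, so that values by its presence are descriptions too. The 408 BiDT cells with a Ly6c2 UMI had a list level of 20837 CPM and the 56 without one 11416 CPM, while the 160 and 181 such Ctrl cells had 4122 and 3379 CPM. Gzmb was at 5584 CPM in the BiDT cells with Ly6c2 and 1635 CPM in those without, and at 1333 and 984 CPM in Ctrl. Median depth was 3350.5 and 2139.5 UMIs in these BiDT groups, and its part in the values was not tested. In thinned cells, Ly6c2 was detected in 26.4% of Ctrl and 74.8% of BiDT cells, against 1.72% and 11.6% in the tumour or stroma gate.

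Of 16 inhibitory receptors measured, leaving out the gate genes, 2 (12.5%) were at least 1.5 times higher in BiDT and 1 (6.25%) lower (median -0.04), shares near the 12.5% and 5.42% of all genes. The higher ones were Entpd1, which encodes the ectonucleotidase CD39, at 105 and 182 CPM (0.80, 0.50 to 1.10), and Cd200r4 at 12.2 and 21.0 CPM, whose interval of -0.11 to 1.73 includes 0. Lower was Cd96, a nectin-family receptor gene, at 105 and 64.8 CPM (-0.69, -1.07 to -0.32). Lag3 had a ratio of 0.50 (0.39 to 0.61) and Vsir, the gene of the checkpoint VISTA, likewise 0.50 (0.21 to 0.79), at 120 and 170 CPM. Ctla4, at 524 and 495 CPM (-0.08, -0.23 to 0.07), and Tigit, at 118 CPM in both libraries (0.00, -0.32 to 0.31), had intervals that include 0, as did Cd160 at 69.7 and 75 CPM. In cells without any UMI of 9 genes of other cell types (Lyz2, C1qa, C1qb, C1qc, Cd79a, S100a8, Ncr1, Flt3 and Sparc) the ratio of Cd160 was -0.64 and that of Lag3 0.72, past the limit. The call of Cd96 ended at -0.51 with at least 2 UMIs of Pdcd1 and of Havcr2, and Vsir reached 0.97 in cells gated after thinning. In cells with neither gate gene Entpd1 had a ratio of 1.14 and Lag3 one of 0.15. Lag3 was higher in BiDT with Pdcd1 only, at 645 and 905 CPM, and with Havcr2 only, at 613 and 973 CPM. It was also higher in cycling cells with both, at 503 and 717 CPM, and in granzyme D to G rich ones, at 688 and 933 CPM. The genes of TIM3 ligands and adaptors gave 0 of 5 past either limit, with Lgals9, the gene of the TIM3 ligand galectin-9, at 42.1 and 63.0 CPM (0.58, 0.10 to 1.08, and -0.08 with cell cycle and granzyme sums of 0).

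Of 21 transcription factors of exhaustion and effector fate measured, 4 (19%) passed 1.5 times higher, beside 12.5% of all genes, and 0 passed 1.5 times lower (median 0.17). Irf4, a factor induced by antigen receptor signals, was at 68.9 and 168 CPM (1.29, 0.94 to 1.65) and had a ratio of 0.49 in cells with neither receptor. Maf, at 26.0 and 55.8 CPM, and Ikzf2, at 30.6 and 51.0 CPM, were also higher, but both lay below 10% of their level in another cell class in each library, the range that free RNA could reach. Prdm1, the gene of the effector regulator Blimp-1, was at 88.0 and 139 CPM (0.65, 0.33 to 0.99), and Tbx21, the gene of T-bet, at 86.5 and 127 CPM (0.55, 0.21 to 0.89). Tox, the factor that establishes the exhausted state, was at 37.5 and 36.6 CPM (-0.04, -0.60 to 0.54) from 49 and 61 UMIs, and had 0.61, past the limit, in cells without a UMI of the 9 genes of other types. Eomes, at 26.0 and 36 CPM, had an interval of -0.16 to 1.12. The orphan receptor genes Nr4a1, at 337 and 407 CPM, Nr4a2, at 402 and 439 CPM, and Nr4a3, at 256 and 244 CPM, had ratios of 0.27, 0.13 and -0.07, and after thinning before the gate Nr4a1 had -0.02 and Nr4a3 -1.07. Thinning also took Prdm1 to 0.37, inside the limit, and Tbx21 to 1.79, past it. With at least 2 UMIs of both gate genes, Ikzf2 had 0.13 and Eomes -0.08.

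**Figure D2:**
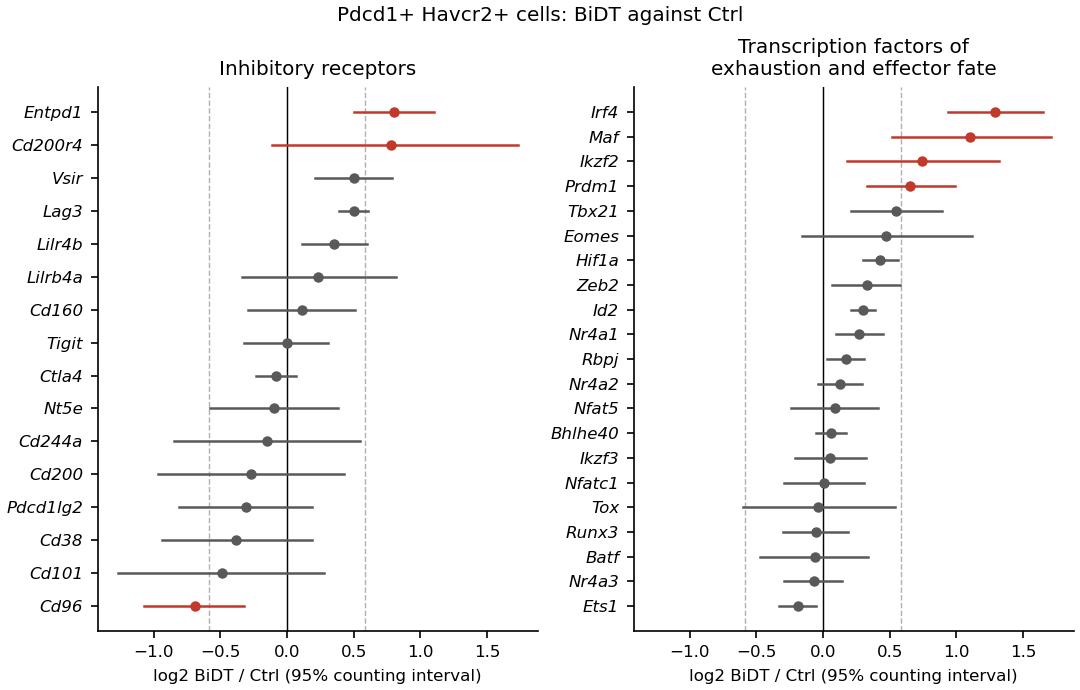
Log2 ratio of BiDT over Ctrl in Pdcd1+ Havcr2+ cells for 16 inhibitory receptors (left) and 21 transcription factors (right), with 95% counting intervals. Dashed lines mark 1.5 times higher and lower, and genes past them are red. Entpd1 at 0.80 and Irf4 at 1.29 lie highest, while Ctla4, Tigit and Tox lie near 0.

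Of 20 cytotoxic genes measured, 3 (15%) passed 1.5 times higher, beside 12.5% of all genes, and 3 (15%) passed 1.5 times lower, beside 5.42% (median 0.09). Gzmb, the gene of the apoptosis-inducing protease granzyme B, was at 1166 CPM in Ctrl against 5262 CPM in BiDT, which is a log2 ratio of 2.17 (2.10 to 2.25). Its 8772 UMIs in BiDT came from 419 of the 464 cells, and the 5 cells with most of them held 7.2%. After thinning it was detected in 43.1% of Ctrl and 79.7% of BiDT cells, beside 0.947% and 7.09% in the tumour or stroma gate. Prf1, which encodes the pore-forming protein perforin, was at 840 and 937 CPM (0.16, 0.04 to 0.27, and -0.11 in cells gated after thinning), and Nkg7, a granule membrane protein gene, at 2924 and 2963 CPM (0.02). Rab27a, a GTPase of granule exocytosis, was at 68.9 and 111 CPM (0.69, 0.32 to 1.07), and Gzmc, in the free RNA range, at 94.9 and 282 CPM. Gzmc had a ratio of 0.03 in cells gated after thinning and Rab27a one of 0.26 with cell cycle and granzyme sums of 0, which ends both calls. Gzma, the gene of granzyme A, was at 423 and 281 CPM (-0.59, -0.77 to -0.41), and 61 Ctrl and 69 BiDT cells held all of its UMIs, 47.0% and 54.9% of them in the highest 5 cells. In cells without a UMI of the 9 genes of other types its ratio was -0.08, and that of Prf1 0.60. The protease inhibitor genes Serpinb6b, at 253 and 144 CPM (-0.82), and Serpinb9b, at 33.7 and 15 CPM, were lower, while Serpinb9, an inhibitor of granzyme B, was at 282 and 223 CPM (-0.34). Serpinb9b came from 19 Ctrl and 13 BiDT cells, and the highest 5 held 59.1% and 68.0% of its UMIs.

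Of 14 cytokine and chemokine genes measured, 5 (35.7%) were at least 1.5 times higher in BiDT and 3 (21.4%) lower, beside 12.5% and 5.42% of all genes. The list median was -0.14, and 0.78 in cells gated after thinning. Ifng, the gene of interferon gamma, was at 573 and 927 CPM (0.69, 0.57 to 0.82), and Tnf at 101 and 169 CPM (0.74, 0.44 to 1.05), though Tnf had a ratio of -0.09 in cells gated after thinning to 1000 UMIs. Ifng was detected in 31.7% of thinned Ctrl cells and 40.5% of BiDT cells, beside 0.516% and 1.05% in the tumour or stroma gate. The genes of inflammatory chemokines diverged. Ccl3 was at 642 and 1247 CPM (0.96, 0.84 to 1.07) and Ccl4 at 1780 and 3545 CPM (0.99, 0.92 to 1.06), whereas Ccl5 was at 2688 and 1369 CPM (-0.97, -1.05 to -0.90). Without the 5 cells richest in Ccl5 in each library its ratio was -1.27, and with at least 2 UMIs of both gate genes -0.37, which ends the call. Ifng had 0.39 in cells without a UMI of the 9 genes of other types. Ccl9, a chemokine gene made mainly by myeloid cells, was at 49.0 and 82.2 CPM, and in the latter cells its ratio was -0.63.

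Ccl1 and Xcl1 were lower in BiDT but came from few cells. Ccl1, the gene of a ligand of the chemokine receptor CCR8, gave 332 UMIs in 42 Ctrl cells and 46 UMIs in 15 BiDT cells, 254 and 27.6 CPM (-3.20, -3.68 to -2.75), and 53.0% of its Ctrl UMIs lay in 5 cells. Xcl1, which encodes the chemokine that attracts cross-presenting dendritic cells through XCR1, gave 194 and 75 UMIs, 148 and 45 CPM (-1.72, -2.13 to -1.33). Of these Ctrl UMIs, 89 were in a single cell, and without the 5 richest cells per library the ratios were -1.33 for Xcl1 and -3.73 for Ccl1. The counting interval does not cover this spread between cells. Both genes were also lower in BiDT in cells with neither receptor, with ratios of -2.15 for Ccl1 and -0.82 for Xcl1. In cycling cells with both receptors Xcl1 was higher in BiDT, at 90.4 and 166 CPM (0.88), and Ccl1 had -0.84. Over the alternatives, the Xcl1 ratio of the non-cycling cells ranged from -3.52 to -0.60.

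**Figure D3:**
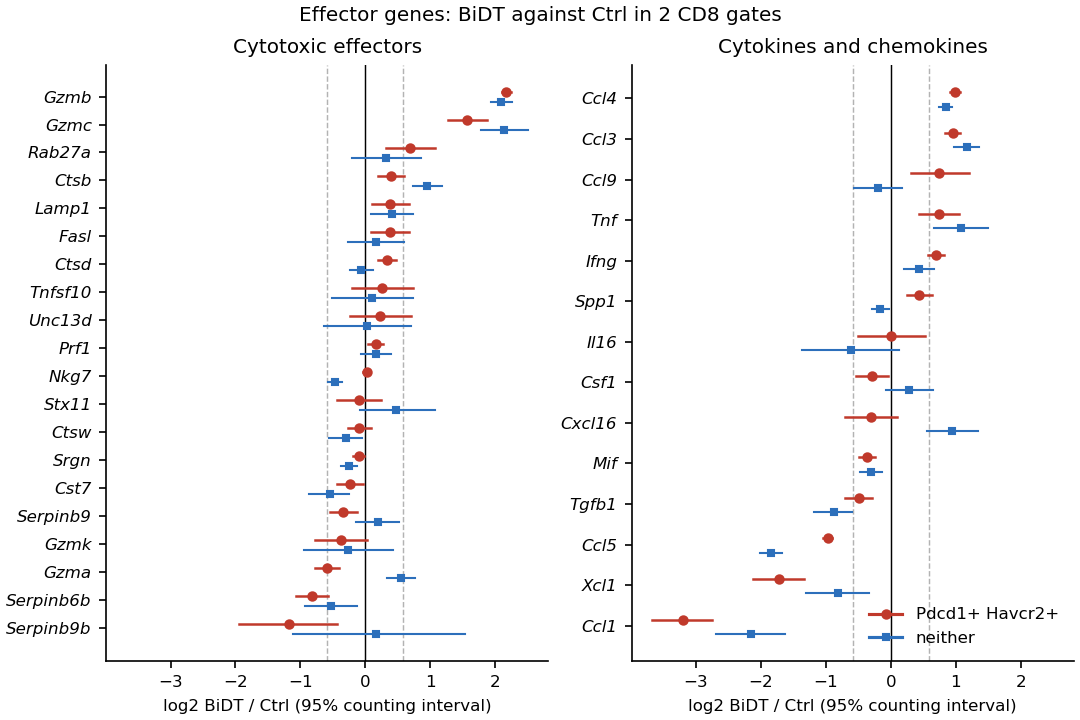
Log2 ratio of BiDT over Ctrl for 20 cytotoxic genes (left) and 14 cytokine or chemokine genes (right) in Pdcd1+ Havcr2+ cells (red circles) and in CD8 cells with neither gene (blue squares), with 95% counting intervals and dashed lines at 1.5 times. Gzmb lies at 2.17 and 2.09 in the 2 gates, and Ccl5 at -0.97 and -1.84.

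Genes of activation, cytokine sensing and tissue positioning gave a mixed picture, read beside 12.5% of all genes at least 1.5 times higher and 5.42% lower. Of 21 genes of antigen receptor activation, 4 (19%) passed 1.5 times higher and 1 (4.76%) passed 1.5 times lower (median 0.13). They were led by Myc, the growth regulator, at 23 and 65.4 CPM (1.51, 0.92 to 2.14), and Cd69, an early activation marker that retains cells in tissue, at 132 and 333 CPM (1.34, 1.09 to 1.59). Klf2, a factor of lymphocyte egress and quiescence, was at 75 and 173 CPM (1.2, 0.87 to 1.55). Of 16 cytokine receptors, 2 (12.5%) were higher and 1 (6.25%) lower (median -0.15), shares near those of all genes. Il10ra, the interleukin 10 receptor chain, was at 122 and 397 CPM (1.70, 1.44 to 1.95), Il12rb1, an interleukin 12 receptor chain, at 27.6 and 75 CPM (1.44, 0.90 to 2.02), and Il18r1, the interleukin 18 receptor, at 234 and 140 CPM (-0.74, -1.0 to -0.49). With cell cycle and granzyme sums of 0 Il18r1 had -0.56, inside the limit. Of 20 chemokine receptor and homing genes, 1 (5%) was higher and 5 (25%) lower (median -0.28). Itga1, the collagen-binding integrin chain of CD49a, was at 82.7 and 42.6 CPM (-0.96), and Cxcr6, a receptor typical of tissue-resident T cells, at 819 and 707 CPM (-0.21, -0.33 to -0.09). Of 14 costimulatory receptors, only Cd2 (7.14%), an adhesion receptor of T cells, was past either limit, at 403 and 666 CPM (0.73, 0.57 to 0.88). Its ratio in cells with neither gate gene was 0.10 and that in cells with Havcr2 only 0.78. Without cells holding a UMI of the 9 genes of other types Cd2 had 0.55, inside the limit.

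Of 14 progenitor and memory genes, 3 (21.4%) passed 1.5 times higher and 3 (21.4%) passed 1.5 times lower, beside 12.5% and 5.42% of all genes. Beside Klf2 and Cd69, Bcl2, an antiapoptotic gene, was higher, at 140 and 232 CPM (0.73, 0.47 to 0.99). Beside Xcl1, Bach2, a repressor that restrains effector differentiation, was lower, at 55.9 and 27.0 CPM (-1.05, -1.62 to -0.49), as was Ccr7, a lymph node homing receptor in the free RNA range, at 152 and 55.8 CPM (-1.44). Without cells holding a UMI of the 9 genes of other types, Bcl2 had 0.50 and Ccr7 -0.55, inside the limits. Ccr7 came from 47 Ctrl and 20 BiDT cells, and the highest 5 held 42.4% and 68.8% of its UMIs. Of 8 NK-type receptor genes, 0 were past either limit, and Klrd1, the CD94 gene, was at 1087 and 1010 CPM, with a ratio of 0.01 in cells gated after thinning. Of 24 genes of glycolysis and hypoxia, 2 (8.33%) were higher and 2 (8.33%) lower. The lower ones were Gapdh, a glycolytic enzyme gene, at 2119 and 1213 CPM (-0.80, -0.89 to -0.72), and Aldoc, an aldolase gene, at 50.5 and 15 CPM (-1.75, -2.48 to -1.07). Of 26 oxidative phosphorylation genes, 0 were higher and 1 (3.85%) lower, Cox8a at 651 and 408 CPM (-0.68), and their median of -0.17 lay below that of all genes. With at least 2 UMIs of both gate genes Cox8a had -0.45, inside the limit. Sterol synthesis genes had 0 of 13 higher and 2 (15.4%) lower (median -0.40). Of 20 early response and heat shock genes, which can report handling, 5 (25%) were higher and 0 lower (median 0.22). Hsp90aa1 was at 677 and 1066 CPM (0.65, and 0.41 with cell cycle and granzyme sums of 0). The part of these early response genes in the other differences was not tested.

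Of 19 death and survival genes measured, 6 (31.6%) passed 1.5 times higher and 4 (21.1%) passed 1.5 times lower, beside 12.5% and 5.42% of all genes. The list median was 0.24, and -0.53 in cells gated after thinning. Mlkl, the executioner of necroptosis, was at 4.59 and 34.8 CPM (2.92, 1.71 to 4.43), Daxx, a death-domain associated chaperone of histones, at 46.7 and 178 CPM (1.93, 1.53 to 2.35), and Casp4, an inflammatory caspase, at 42.1 and 92.4 CPM (1.13). Genes of the BCL2 family lay on both sides. Beside Bcl2, the proapoptotic genes Pmaip1, at 67.4 and 109 CPM (0.69), and Bak1, at 59.7 and 91.2 CPM (0.61, and -0.10 after thinning), were higher, while the proapoptotic Bcl2l11 was lower, at 184 and 103 CPM (-0.85, -1.14 to -0.56). With at least 2 UMIs of both gate genes Pmaip1 had 0.38, inside the limit. Fas, the gene of a death receptor, was at 42.1 and 25.8 CPM (-0.71, and -0.31 without cells holding a UMI of the 9 genes of other types). The antiapoptotic BCL2A1 genes were lower, Bcl2a1d at 438 and 235 CPM (-0.90, -1.09 to -0.71) and Bcl2a1b at 473 and 284 CPM (-0.74, -0.91 to -0.56). These copies are near-identical and their reads may be split. In cells with neither receptor their ratios were -1.15 and -0.97. Bcl2a1b had -0.53, inside the limit, with at least 2 UMIs of both gate genes. Although cycling cells were gated out, 5 (45.5%) of 11 other proliferation genes passed 1.5 times higher and 0 passed 1.5 times lower (median 0.50, and 0.08 in cells gated after thinning). Among them were the replication helicase genes Mcm7, at 30.6 and 66.6 CPM (1.12, 0.59 to 1.68, and 0.40 without cells holding a UMI of the 9 genes of other types), and Mcm3, at 53.6 and 105 CPM (0.97, 0.56 to 1.39). H2az1, a histone variant gene, was at 426 and 312 CPM (-0.45).

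The 10 lowest named genes held, beside Ccl1, Xcl1 and Aldoc, several that are not typical of T cells. Mgl2, a lectin gene of macrophages and dendritic cells, was at 54.3 and 7.80 CPM (-2.80), with 64.8% of its Ctrl UMIs in 5 cells. Fn1, the fibronectin gene, was at 189 and 75 CPM (-1.33), and Nrgn, a calmodulin-binding protein gene, at 329 and 131 CPM (-1.32). Ifi27, an interferon-inducible gene by its name but outside the type I interferon list, was at 103 and 30.0 CPM (-1.78). Its ratios in the other CD8 gates ran from -1.42 to -0.77. Emb, a membrane glycoprotein gene, was at 250 and 106 CPM (-1.24). Tmem64, at 53.6 and 21.6 CPM, and Ube2j1, a ubiquitin-conjugating enzyme gene of the endoplasmic reticulum, at 71.2 and 29.4 CPM, completed the group.

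Transcripts of other cell types were found in most Pdcd1+ Havcr2+ cells and differed in level between the libraries. No UMI of the 9 genes of other types was seen in 74 of 341 Ctrl and 178 of 464 BiDT cells. The dendritic marker list summed to 2733 CPM in Ctrl and 1313 CPM in BiDT in Pdcd1+ Havcr2+ cells, mostly from Cd74, at 1185 and 608 CPM, H2-Aa, at 463 and 174 CPM, and H2-Eb1, at 423 and 158 CPM, all within the free RNA range. Flt3, Xcr1, Clec9a and Siglech of that list were at 0 in BiDT, and Siglech was at 0 in Ctrl. The macrophage or monocyte list summed to 1330 and 1227 CPM, with Csf1r at 0 by the gate, and Lyz2 alone to 569 and 281 CPM, against 15471 and 13101 CPM for the list in the macrophage or monocyte gate. The neutrophil list summed to 237 and 503 CPM with all 8 genes detected, the NK list to 455 and 488 CPM with 10 of 11 genes detected in each library, and the gamma delta T list to 71.2 and 19.2 CPM. Il17a, from 2 cells of each library, gave 60 of the 93 UMIs of the latter list in Ctrl and 13 of 32 in BiDT. The B and plasma cell list was at 2.30 and 13.8 CPM. The part of these transcripts in the differences above was not tested. Without cells holding any UMI of 9 genes of other types, the type I interferon list had a median ratio of 2.78 and Gzmb one of 2.21, from 74 Ctrl and 178 BiDT cells.

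Within each library, Pdcd1+ Havcr2+ cells were then set against CD8 cells with neither transcript that passed the same gate. In Ctrl, 354 of 5414 genes (6.54%) were at least 1.5 times higher and 384 (7.09%) lower in the cells with both. In BiDT these were 510 (7.70%) and 715 (10.8%) of 6621 genes. A total of 488 of 5353 genes measured in both had the same direction with intervals excluding 0 in both libraries, 239 of them higher and 249 lower in cells with both. Gzmb was at 1166 CPM against 499 CPM in Ctrl (1.23) and at 5262 against 2128 CPM in BiDT (1.31). Prf1 was at 840 against 371 CPM (1.18) and 937 against 415 CPM (1.17), and Ccl5 at 2688 against 1504 CPM (0.84) and 1369 against 419 CPM (1.71). Tigit, which encodes an inhibitory receptor, was at 118 against 43.5 CPM (1.44) and 118 against 59.6 CPM (0.98). Phf11b, Sdcbp2, Filip1, Sv2c and Slc17a6 were also among the 10 highest, with Sdcbp2, a syntenin gene, at ratios of 1.21 and 1.69. Several of these calls ended under an alternative. After thinning before the gate, Gzmb had 0.57 in Ctrl, inside the limit, but 0.78 in BiDT, still past it. Ccl5 had 0.45 and 0.23, both inside. Without cells holding a UMI of the 9 genes of other types, Sdcbp2 had 0.05 in Ctrl and Tigit 0.38 in BiDT.

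The lower side consisted of Ctsl, Trf, Fn1, Spp1, Slc7a2, Tlr2, Plin2, Clec4n, Metrnl and Pdpn. Several of these are typical of macrophages, such as Spp1, the osteopontin gene, at 286 against 1196 CPM in Ctrl (-2.07) and 388 against 1071 CPM in BiDT (-1.47), and Ctsl, the cathepsin L gene, at 42.9 against 199 CPM (-2.22) and 100 against 309 CPM (-1.63). The macrophage or monocyte list moved with them, at 1330 against 2217 CPM in Ctrl and 1227 against 2348 CPM in BiDT. In BiDT the tumour or stroma list was at 20.4 against 1090 CPM, and the B and plasma cell list at 13.8 against 565 CPM. In Ctrl these were at 34.4 against 146 CPM and 2.30 against 2.81 CPM. The same cells with neither transcript gave the BiDT over Ctrl ratios printed for them above. In Ctrl cells without a UMI of 9 genes of other types, Fn1 had a ratio of 0.05 and Metrnl one of 0.27. In BiDT such cells gave -0.33 for Ctsl and -0.04 for Fn1, so that neither was past the limit. The cells with neither transcript were also shallower, and the part of depth and of these transcripts was not tested.

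**Figure D4:**
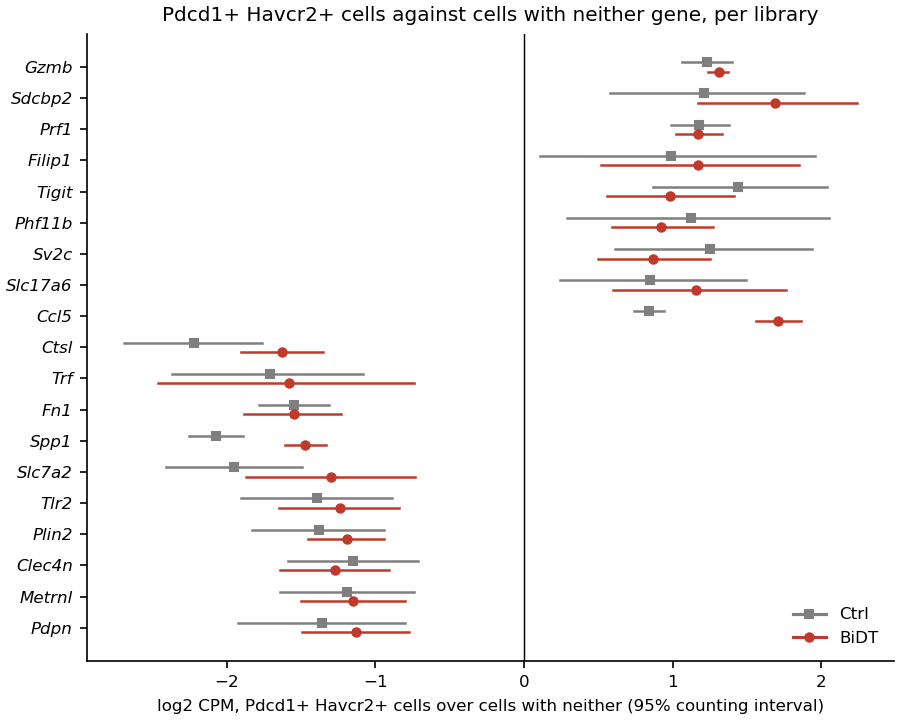
Log2 ratio of CPM in Pdcd1+ Havcr2+ cells over CD8 cells with neither gene, in Ctrl (grey squares) and BiDT (red circles), with 95% counting intervals, for 9 of the 10 highest and the 10 lowest named genes. Gzmb lies at 1.23 and 1.31, and Spp1 at -2.07 and -1.47.

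In thinned Pdcd1+ Havcr2+ cells the variance of UMIs divided by their mean (the Fano factor, which is 1 for pure counting noise) had a median of 1.10 over 1512 genes in Ctrl and 1.13 over 1654 genes in BiDT. The 5 highest genes were Ccl4, Cmss1, Ccl5, Gzma and Ccl1 in Ctrl and Gzma, Ccl4, Cmss1, Ccl5 and Malat1 in BiDT. Ccl4 had values of 8.65 and 8.55, Cmss1 of 7.63 and 7.47, Ccl5 of 7.04 and 7.43, Ccl3 of 5.12 and 6.61, and Gzma of 6.27 and 9.26. Ccl1 stood at 6.11 in Ctrl and 1.81 in BiDT, where few UMIs remained. Gzmb, at 3.55 in Ctrl and 5.08 in BiDT, was among the 10 highest genes in BiDT. The factor was not corrected for the mean, and Gzmb stood at 1166 and 5262 CPM. Its larger value in BiDT is therefore not a measure of greater spread relative to its level. Malat1, a nuclear RNA, at 4.98 and 7.32, was also among the highest in both libraries.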

How the data were processed

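Transcripts of CD45+ cells from MC38 tumours were measured by single-cell RNA sequencing in 1 Ctrl and 1 BiDT library, each a mixture of 5 biological replicates. Per the labels' protocols a 10x Genomics 3' workflow was used. Per the submitters' processing notes, the tool was Cell Ranger 7.1.0 and the build GRCm39. Both matrices, as deposited, hold whole UMI counts of 32589 genes in each barcode, unnormalized by the authors. The barcodes have 3 segments, which is not the form Cell Ranger writes, so that the workflow is uncertain. The annotation release and any use of strand in counting are not given in the sources used here, so that reads of overlapping and antisense genes cannot be told apart.

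Cells were gated on raw UMIs as described in the report, with no clustering and no doublet removal. Scrublet (scanpy 1.11.5) marked 0 cells at its own thresholds of 0.682 and 0.574, so it had not worked there, and a score of 0.15 or more served as an alternative. UMIs were summed per gate and library (1306446 in Ctrl and 1666926 in BiDT for Pdcd1+ Havcr2+ cells) and given as CPM. Log2 ratios have exact conditional binomial 95% intervals, which cover counting error only. A count of 0 stood at 3 counts. Genes with at least 50 UMIs over both libraries were described, and a list by its median and by members at least 1.5 times higher or lower, with the 19 gate genes left out. Free RNA range means under 10% of the CPM in the highest of 8 other cell gates, in both libraries. TMM (trimmed mean of M-values) scaling would shift BiDT over Ctrl ratios by -0.04 in Pdcd1+ Havcr2+ cells and by -0.07 in cells with neither gene. The ratio calculation was tested on simulated data.

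Named genes are the 10 highest and 10 lowest ratios with at least 50 CPM in 1 library and an interval excluding 0, leaving out genes of the gate or the free RNA range, sex-linked and predicted genes, receptor segments, and ribosomal and mitochondrial genes. Added to these are the 4 largest ratios and 2 highest levels of each list and any gene of the inhibitory receptor, transcription factor, cytotoxic, cytokine and interferon signalling lists. Against cells with neither gene, the smaller absolute ratio of the 2 libraries ranked them. Some genes that meet these rules are not reported here. Members and lists were chosen with earlier results of these data known. Promoters are from RefSeq (GRCm38.p6), another build than that of the files, matched by symbol for 5381 of 6682 measured genes. Analyses used scipy 1.17.1 and numpy 2.4.6 under Python 3.11.15, with pandas 2.3.3 for tables and matplotlib 3.10.9 for figures.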

Additional observations from a re-analysis of the deposited data

Results flagged for a closer look

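Log2 ratios of BiDT over Ctrl pointed in opposite directions in Pdcd1+ Havcr2+ cells and in CD8 cells with neither transcript for 3 genes of the fixed lists whose counting intervals exclude 0 in both. With 1 library per group the difference between the 2 kinds of cell was not tested. Gzma, the granzyme A gene, had -0.59 in Pdcd1+ Havcr2+ cells and 0.55 in cells with neither, and in the former the 5 richest cells held 47.0% of its UMIs in Ctrl and 54.9% in BiDT. Rbpj, the gene of the transcription factor at the end of Notch signalling, had 0.17 and -0.22. Spp1, the osteopontin gene, which macrophages make in quantity, had 0.44 and -0.16, beside macrophage list sums of 1330 and 1227 CPM in the former cells and 2217 and 2348 CPM in the latter.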

How the results depend on the processing

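No paired analysis was possible because each group is 1 library whose replicates were mixed, and for the same reason no replicate could be left out. The median type I interferon ratio of Pdcd1+ Havcr2+ cells, 2.73, stayed between 2.49 and 2.97 over 11 alternatives, and that of cells with neither transcript, 2.64, between 2.52 and 2.84. An alternative chosen after seeing the data, which drops for each gene the 5 cells per library with most of its UMIs, gave 3.18, since it takes out much of the few Ctrl UMIs. The other list medians stayed between the medians of their genes' lower and upper counting limits in 237 of 249 values. That range has the width of a single gene's interval and is not an interval of the list median, so staying within it says little. All values of the interferon signalling median, from -0.42 to 0.12, and of the sterol synthesis median, from -0.64 to 0.02, stayed within it. Thinning took the cytokine median from -0.14 to 0.78, the death and survival median from 0.24 to -0.53, the proliferation median from 0.50 to 0.08, the progenitor and memory median from -0.08 to 0.30, the glycolysis and hypoxia median from 0.04 to -0.30, the costimulatory median from 0.08 to -0.26, the TIM3 ligand median from 0.01 to -0.49 and the homing median from -0.28 to -0.06.

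The BiDT over Ctrl counts of 836 higher and 362 lower genes became 1354 and 755 with at least 20 UMIs per gene, 277 and 99 with at least 200, 141 and 94 after thinning to 1000 UMIs, and 437 and 216 without cells holding any UMI of 9 genes of other types. Against cells with neither transcript, the numbers higher and lower were 813 and 957 in Ctrl and 883 and 1413 in BiDT at 20 UMIs, and 61 and 53 in Ctrl and 149 and 178 in BiDT at 200. Thinning gave 266 and 384 in BiDT, and leaving out cells with UMIs of other types gave 136 and 69 in Ctrl and 263 and 275 in BiDT. Gating at sums of 0 for cell cycle and granzyme transcripts gave 217 lower genes in Ctrl and 379 in BiDT. With fewer cells or UMIs, fewer genes are measured.

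Shares of filtered cells in Ctrl and BiDT were 0.270% and 0.444% after thinning, 0.371% and 0.476% with at least 2 UMIs of Pdcd1 and of Havcr2, 0.595% and 0.613% with sums of 0, 0.227% and 0.517% without cells holding UMIs of other types, and 1.5% in BiDT with at least 1500 UMIs per cell. Shares of the CD8 gate were 5.73% and 6.15%, 5.97% and 4.35%, and 9.57% and 5.60% in the first 3 of these.

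Of 1353 single-gene values, taken only where at least 20 UMIs remained, 1093 stayed within the counting interval, 251 moved outside it and 9 turned sign where that interval had excluded 0. A further 23 values, of 8 genes whose intervals included 0 (Cd160, Eomes, Ifnar1, Ifnar2, Nkg7, Nr4a2, Tox and Tyk2), also crossed 0 and are counted among the former kinds. In 58 values of 42 results a ratio past 1.5 times came to lie inside that limit, and in 24 values of 16 results one inside came to lie past it. After thinning, Nr4a1 had -0.02, Prf1 -0.11, Tnf -0.09, Bak1 -0.10 and Klrd1 0.01. Lgals9 had -0.08 with sums of 0. Without cells holding UMIs of other types, Ccl9 had -0.63, and in Ctrl against cells with neither transcript Fn1 had 0.05 and Metrnl 0.27. The cause of these moves was not tested. Depth limits the low-count genes most, such as Usp18 with 3 Ctrl UMIs and Tox with 49 and 61 UMIs.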
